A study of Mus musculus with 2 samples.

Results

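The genes described here build the N-glycan precursor in the endoplasmic reticulum (ER), transfer it to proteins and trim it. They are 31 named genes, taken from an array of 18193 genes wherever the platform annotation gave a probe set exactly 1 of their symbols, and 62 of the 45101 probe sets carried such a symbol. A further probe set, named for both Dpm1 and Adnp, was not used. Messenger RNA was compared on Affymetrix mouse arrays between Fut8-/- mouse embryonic fibroblasts (MEFs), homozygous for the disrupted Fut8 gene, and Fut8+/+ MEFs, which carry both normal copies. MEFs are fibroblast cultures grown from embryos, and both cultures were kept in the same serum-containing medium. Each genotype has 1 array, so differences have no replicate check, and neither a test nor a p-value can be given. The design text speaks of 3 cultures per genotype, but the sources used here do not say whether an array holds RNA of 1 dish or more, how the Fut8 gene was disrupted or whether a culture descends from 1 clone.

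N-glycosylation begins with a lipid, dolichol phosphate, on which enzymes on the cytosolic face of the ER and then in its lumen assemble an oligosaccharide of N-acetylglucosamine, mannose and glucose. Oligosaccharyltransferase moves this oligosaccharide as a block onto asparagine residues of nascent proteins. Glucosidases and mannosidases then trim it, and the trimmed glycan is read by the chaperones and sorting receptors that decide whether a glycoprotein leaves the ER. The Fut8 enzyme acts later, in the Golgi apparatus, where it attaches the core fucose to the maturing glycan. The comparison asks whether the genes of the early steps differ in level between cells with and without that late enzyme.

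Signals below are the authors' deposited intensities, in arbitrary units of each probe set, and cannot be ranked between genes. Ratios are log2 of Fut8-/- over Fut8+/+ at the brightest probe set of a gene, after centring on the median ratio of the array pair, which multiplied the Fut8-/- signals by 1.16. Scaled signals below 12.3 were raised to that floor, a gene was taken as measured where the brighter array reached 39.1, and a gene was counted as higher or lower from 2-fold on. Ratios of probe sets for the same gene had an SD of 0.40 in log2 units (1.32-fold, 5389 genes). This SD is technical, from 1 pair of arrays, and says nothing of the spread between cultures. Fut8, read by 3 probe sets, had a signal of 11.7 in Fut8-/- and 190.9 in Fut8+/+ where it was brightest, 14.1-fold lower, and was below the floor on both arrays elsewhere. The part of the gene that each probe set reads is unknown here, so this checks the labels in part. Sex-linked transcripts set the cultures apart as well, with 2845 in Fut8-/- and 7.06 in Fut8+/+ for the Y-linked Eif2s3y, and 15.2 in Fut8-/- and 656 in Fut8+/+ for Xist. This sex-linked difference runs along with genotype in every ratio below and cannot be told apart from it. The 3-prime signal over the 5-prime signal, a sign of RNA integrity, was 0.732 in Fut8-/- and 0.812 in Fut8+/+ for Gapdh, and 1.25 in Fut8-/- and 1.20 in Fut8+/+ for beta-actin. Of 13 fibroblast markers 10 were measured, among them Col1a2, Vim and Sparc at high signals on both arrays, whereas Thy1, Dcn and Lum were not. Col1a1, Fn1, Pdgfra and Prrx1 were at least 2-fold lower and Pdgfrb at least 2-fold higher. The 4 endothelial and the 4 leukocyte markers were all below the measured limit on both arrays. Of 6 epithelial markers 3 were measured: Krt19 (155 in Fut8-/- and 2.08 in Fut8+/+), Dsp (71.1 in Fut8-/- and 5.07 in Fut8+/+) and Epcam (15.9 in Fut8-/- and 44.9 in Fut8+/+). Of the other 3, Krt8 was below the measured limit but above the floor (27.4 in Fut8-/- and 15.5 in Fut8+/+), and Cdh1 and Krt18 were below the floor on both arrays. Of 4 skeletal muscle markers Des (10.2 in Fut8-/- and 55.9 in Fut8+/+) and Ckm (44.6 in Fut8-/- and 22.8 in Fut8+/+) were measured, and the defining Myod1 and Myog were not. The part of these markers in the results below was not tested.

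All 31 genes passed the filter on dim signals, as did 55.9% of all genes on the array. Few of the 31 genes passed the 2-fold limit. Only Alg5 was higher by 2-fold or more in Fut8-/- (1 of 31, 3.23%, beside 6.08% of all 10164 measured genes), and 0 were lower by that much (beside 8.46%). With 1 array per genotype, these counts do not show that the levels were the same. The 30 genes within 2-fold make up 96.8% of the 31, beside 85.5% of all measured genes. The middle of the distribution lay slightly below that of the array: the median log2 ratio of the 31 genes was -0.32 and that of all measured genes 0.00, and 23 of the 31 genes (74.2%) had a ratio below 0, beside 49.9% of all measured genes. The middle 50% of the 31 ratios spanned -0.49 to 0.03, beside -0.38 to 0.36 for all measured genes. At a limit of 1.5-fold 6 genes were lower (19.4%, beside 16.6% of all measured genes) and Alg5 was still the 1 higher gene (14.4% of all measured genes). The 6 were Dpm3, Alg11, Lman1, Uggt1, Man1c1 and Rpn2. Ratios larger than the SD between probe sets were found for 13 of the 31 genes (41.9%), 10 of them lower and 3 higher, and for 46.5% of all measured genes, so the share of such ratios was near the background. Without centring the same genes gave 0 higher and 3 lower by at least 2-fold (4.08% and 11.8% of all measured genes), the 3 being Dpm3, Alg11 and Lman1.

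**Figure D1:**
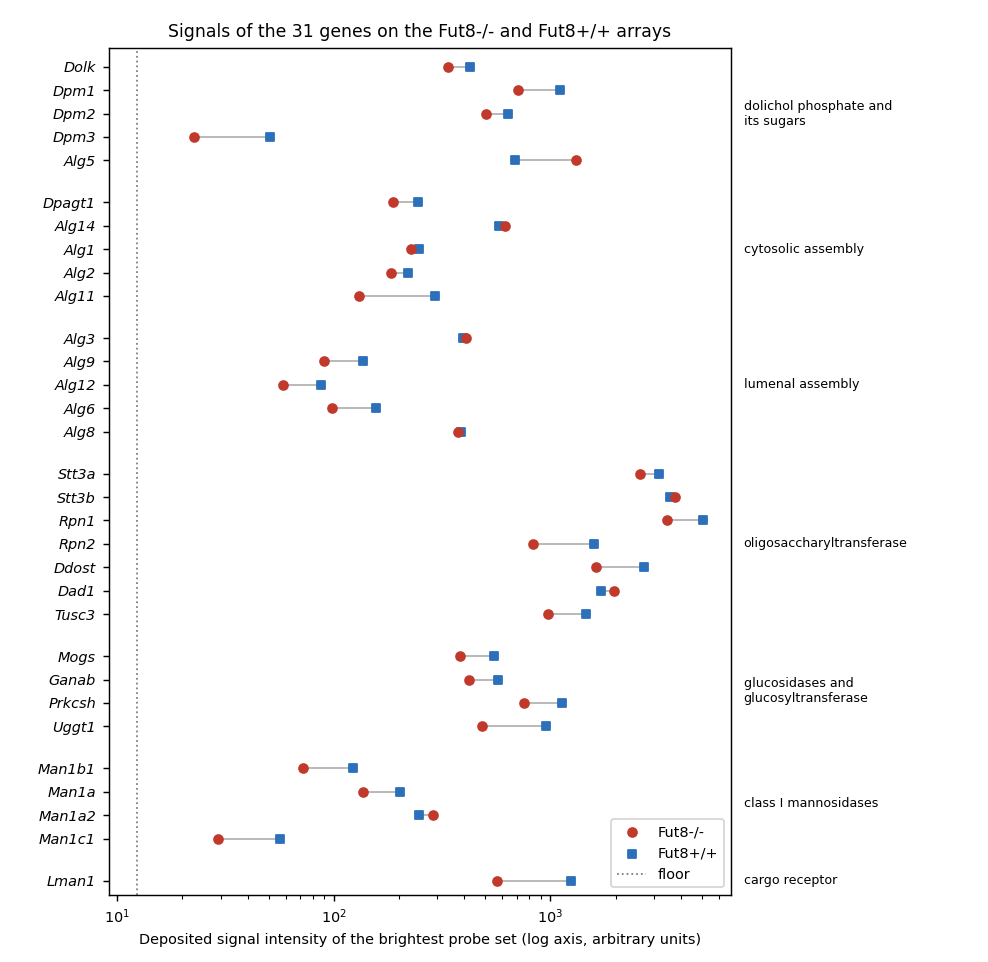
Deposited signal (log axis, arbitrary units) of the brightest probe set of each of the 31 genes on the Fut8-/- array (red circles) and the Fut8+/+ array (blue squares), ordered by step of the pathway, with the floor of 12.3 as a dotted line. Alg5 is the gene whose red point lies farthest to the right of its blue point, at 1310 and 687, and all points lie above the floor.

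Genes that make dolichol phosphate and load it with sugar included the 1 gene past 2-fold. Alg5 encodes the glucosyltransferase that makes dolichol-phosphate-glucose, the donor of the glucoses that cap the precursor. It read 1310 in Fut8-/- and 687 in Fut8+/+, which is 2.22-fold higher (log2 ratio 1.15). A dimmer probe set of Alg5 read 0.639 in Fut8-/- and 1.24 in Fut8+/+, below the floor on both, and gives no ratio, so the difference rests on 1 probe set. The dolichol kinase gene Dolk had signals of 336 in Fut8-/- and 425 in Fut8+/+ (log2 ratio -0.12). Dolichol-phosphate-mannose, the lumenal mannose donor, is made by a complex of the catalytic subunit Dpm1 and the small subunits Dpm2 and Dpm3, which stabilise and anchor it. Dpm1 had signals of 712 in Fut8-/- and 1113 in Fut8+/+ (log2 ratio -0.43), while its dimmer probe set gave 0.07, of the other sign. Dpm2 read 502 in Fut8-/- and 636 in Fut8+/+ (-0.12), close to Dolk. Dpm3 had the lowest ratio of the 31 genes, -0.94 (1.92-fold lower), with signals of 22.6 in Fut8-/- and 50.7 in Fut8+/+ that are near the dim limit, and raising the floor to the 60th percentile brought the ratio to -0.37. The mannose donor complex was therefore below 0 at all 3 brightest probe sets while the glucose donor gene was above 0.

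The Alg5 promoter is shown because Alg5 was the 1 gene past the fold limit. The sequence is from RefSeq on build GRCm38.p6 (chr3:54735289-54735588, plus strand), 5′ to 3′, from 250 bases before the start of the gene to 50 after it. It is 76.0% G and C, the highest share among the 26 promoters found for 25 of the 31 genes (lowest 44.7%, median 61.0%; median of all 32851 promoters 52.7%). None of the ER stress motifs described below occurs in it, so it has no capitals.
Alg5: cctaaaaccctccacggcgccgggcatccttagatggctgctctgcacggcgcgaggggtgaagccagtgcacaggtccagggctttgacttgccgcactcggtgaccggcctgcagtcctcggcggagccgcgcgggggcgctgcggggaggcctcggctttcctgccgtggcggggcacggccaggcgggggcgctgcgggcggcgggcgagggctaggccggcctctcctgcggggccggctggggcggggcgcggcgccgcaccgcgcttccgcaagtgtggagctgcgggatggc

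Alg5 lies on chromosome 3 in a stretch where its neighbours were higher too. This was examined after the values were seen, by taking the 5 measured genes on each side of every one of the 31 genes in the gene order of GRCm38.p6. All 10 neighbours of Alg5 had ratios above 0, and 9 of them were at least 2-fold higher in Fut8-/-. The adjacent Exosc8, an exosome subunit gene, had signals of 5071 in Fut8-/- and 2451 in Fut8+/+ (2.41-fold), and Supt20 next to it 1105 in Fut8-/- and 498 in Fut8+/+ (2.58-fold). On the other side Rfxap, a regulator of class II antigen presentation genes, had 1356 in Fut8-/- and 322 in Fut8+/+ (4.90-fold) and Spg20 785 in Fut8-/- and 398 in Fut8+/+ (2.29-fold). Postn, the matricellular periostin gene, was at least 92.8-fold higher, with 984 in Fut8-/- and 11.3 in Fut8+/+. Alg5 itself had a log2 ratio of 1.15, and the median of the 10 neighbours was 1.32. For the other 30 genes the same median of 10 neighbours lay between -0.46 and 0.56. The 3 further genes on chromosome 3 were not in that stretch, and their neighbours had medians of 0.26 for Dpm3, -0.39 for Alg14 and 0.23 for Man1a2. Chromosome 3 as a whole had a median of 0.24 over 519 measured genes, and centred on it the Alg5 ratio was 0.91, under the 2-fold limit. With 1 array per genotype, a difference between these cultures that covers the whole stretch and an effect of Fut8 on Alg5 cannot be told apart.

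**Figure D2:**
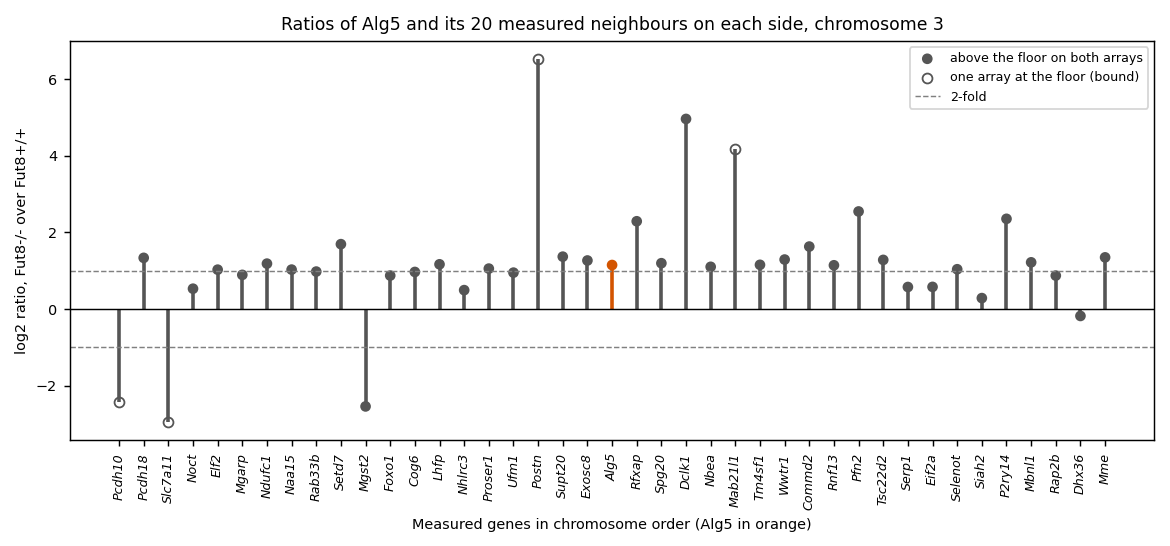
log2 ratio of Fut8-/- over Fut8+/+ (vertical axis) for Alg5 (orange) and its 20 measured neighbours on each side in chromosome order, with open circles where 1 array was at the floor and the ratio is a bound. Of the 41 genes 37 lie above 0 and 4 below, and Alg5, at 1.15, lies within the range of its 10 nearest neighbours, 0.95 to 6.54.

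The enzymes that act on the cytosolic face of the ER lay around 0 with 1 exception. Dpagt1, which starts the precursor by adding N-acetylglucosamine phosphate to dolichol phosphate and is the target of tunicamycin, had signals of 187 in Fut8-/- and 245 in Fut8+/+ (log2 ratio -0.17). Alg14 anchors the enzyme that adds the next N-acetylglucosamine, and had 618 in Fut8-/- and 580 in Fut8+/+ (0.31), but a dimmer probe set with 127 in Fut8-/- and 215 in Fut8+/+ gave -0.54. The direction of Alg14 therefore depends on the probe set. The first mannose is added by Alg1, with 227 in Fut8-/- and 246 in Fut8+/+ (0.10), and the next mannoses by Alg2, with 184 in Fut8-/- and 220 in Fut8+/+ (-0.04). Alg1 turned below 0 without centring and with each chromosome centred, and Alg2 above 0 after quantile normalization and with each chromosome centred, so neither has a settled direction. Alg11, which adds the last mannoses on this face, was the exception, with 131 in Fut8-/- and 292 in Fut8+/+ (-0.94, 1.92-fold lower). Its dimmer probe set, with 51.7 in Fut8-/- and 61.1 in Fut8+/+, gave -0.02, and the median over its probe sets was -0.48.

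The mannosyl- and glucosyltransferases of the ER lumen differed by at most 1.38-fold at their brightest probe sets. Alg3, which adds the first lumenal mannose, had 407 in Fut8-/- and 396 in Fut8+/+ (log2 ratio 0.26). Alg9, which follows it, had 89.8 in Fut8-/- and 137 in Fut8+/+ (-0.39). Alg12, a further mannosyltransferase, had 58.3 in Fut8-/- and 87.6 in Fut8+/+ (-0.37). Of the 3 probe sets of Alg12, 2 were below 0 and the third, whose name marks it as matching several transcripts, gave 0.56. The glucosyltransferases differed in sign. Alg6, which adds the first glucose, had 98.1 in Fut8-/- and 157 in Fut8+/+ (-0.46), and Alg8, which adds the next, had 376 in Fut8-/- and 387 in Fut8+/+ (0.18, but -0.04 without centring).

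The Alg12 promoter is shown because it was the 1 among the promoters of these genes to hold an ER stress response element, which is CCAAT, 9 bases of any kind and CCACG, searched on both strands, and a motif known from chaperone genes of the unfolded protein response. The element lies from 220 to 202 bases before the start of the gene and is in capitals where its letters are fixed. The sequence is from RefSeq on build GRCm38.p6 (chr15:88819269-88819568, minus strand), given 5′ to 3′ in the direction of the gene.
Alg12: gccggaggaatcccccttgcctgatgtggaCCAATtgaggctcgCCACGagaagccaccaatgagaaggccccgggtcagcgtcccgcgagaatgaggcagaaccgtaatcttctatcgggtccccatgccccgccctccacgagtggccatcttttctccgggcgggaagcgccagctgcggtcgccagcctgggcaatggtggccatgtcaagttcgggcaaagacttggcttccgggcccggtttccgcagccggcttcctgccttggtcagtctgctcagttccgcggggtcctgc

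The same element was found in 39 of all 32851 promoters (0.119%), in 1 of the 26 promoters of the glycan genes (3.85%), in 4 of 16 promoters of a list of unfolded protein response genes (Creld2, Dnajc3, Hsp90b1 and Hspa5), and in 3 of 14 of a list of glycoprotein folding and disposal genes (Calr, Canx and Syvn1). The related element II, which is ATTGG, 1 base of any kind and CCACG (0.0365% of all promoters), and the core TGACGTGG of the unfolded protein response element (0.676%) occurred in none of the 26, which says only that these letters are not in these 300 bases. The 4 stress genes with the element had log2 ratios of -0.22 (Creld2), 0.03 (Dnajc3), -0.10 (Hsp90b1) and -0.11 (Hspa5), and Alg12 -0.37. The 3 folding genes had -0.36 (Calr), -0.07 (Canx) and 0.29 (Syvn1). Element II was found in 1 promoter of the stress list, that of Herpud1, a gene of ER-associated degradation, which was 2.66-fold lower, with 314 in Fut8-/- and 971 in Fut8+/+.

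Subunits of oligosaccharyltransferase differed in sign among themselves. The enzyme exists in a form with the catalytic subunit Stt3a, which glycosylates proteins as they enter the ER, and a form with Stt3b, which also acts afterwards. Stt3a had signals of 2579 in Fut8-/- and 3176 in Fut8+/+ at its brightest probe set (log2 ratio -0.08). Its next probe sets gave -0.58, with 769 in Fut8-/- and 1339 in Fut8+/+, and -0.87, with 86.4 in Fut8-/- and 183 in Fut8+/+. All 3 were below 0, and the brightest, whose name marks possible cross-hybridisation, gave the smallest difference. Stt3b had 3752 in Fut8-/- and 3547 in Fut8+/+ (0.30), and its dimmer probe set gave 0.38. Leaving out probe sets at the floor, the ratios of Stt3a and Stt3b did not overlap. Their nearest ratios, -0.08 and 0.30, were closer together than the SD between probe sets of the same gene (0.40). Probe sets of the same array pair are not replicates, so a difference between the forms cannot be read from this. How often the probe sets of other gene pairs do not overlap was not tested. Rpn1 and Rpn2 encode the ribophorins and Ddost the third large subunit of the shared core. Rpn1 had 3466 in Fut8-/- and 5051 in Fut8+/+ (-0.32), and all 5 of its probe sets above the floor lay between -0.68 and -0.31. Rpn2 had 830 in Fut8-/- and 1584 in Fut8+/+ (-0.71), and Ddost 1629 in Fut8-/- and 2701 in Fut8+/+ (-0.51). Dad1, a small core subunit, had 1973 in Fut8-/- and 1715 in Fut8+/+ (0.42, and 0.34 at its other probe set). Tusc3, an oxidoreductase subunit of the Stt3b form, had 972 in Fut8-/- and 1458 in Fut8+/+ (-0.37). The large core subunits Rpn1, Rpn2 and Ddost were thus below 0 and the small Dad1 above 0, none by 2-fold. Further small subunits, from another list, differed in sign: Ost4 had 0.48, and Tmem258 had 65.2 in Fut8-/- and 79.6 in Fut8+/+ (-0.07). A split between large and small subunits cannot be read from these values.

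**Figure D3:**
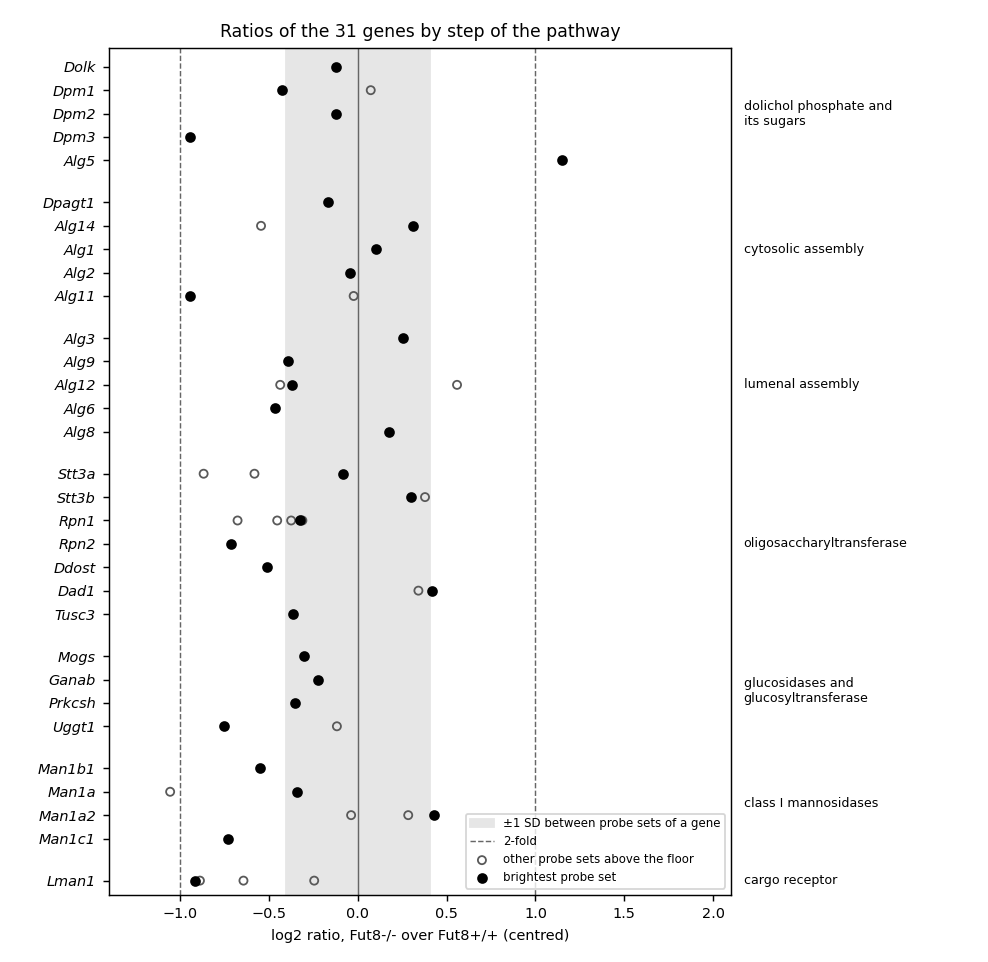
log2 ratio of Fut8-/- over Fut8+/+ (horizontal axis) for the 31 genes by step of the pathway, with the brightest probe set as a filled point and other probe sets with both arrays above the floor as open points. The grey band is 1 SD between probe sets of the same gene (0.40), and Alg5 is the filled point beyond the dashed 2-fold lines.

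The glucosidases and the folding sensor were all below 0. Mogs, glucosidase I, which removes the outermost glucose, had 383 in Fut8-/- and 550 in Fut8+/+ (log2 ratio -0.30). The glucosidase II subunits were alike, with 421 in Fut8-/- and 572 in Fut8+/+ for the catalytic Ganab (-0.22) and 758 in Fut8-/- and 1127 in Fut8+/+ for the regulatory Prkcsh (-0.35). Uggt1, which puts a glucose back on misfolded glycoproteins, had 485 in Fut8-/- and 950 in Fut8+/+ (-0.75, 1.68-fold lower), while a dimmer probe set gave -0.12 with 157 in Fut8-/- and 198 in Fut8+/+.

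Among the class I mannosidases, which trim mannose in the ER and early Golgi, 3 were below 0 and 1 above. Man1b1, the ER mannosidase, had 71.9 in Fut8-/- and 123 in Fut8+/+ (log2 ratio -0.55). Of the Golgi enzymes, Man1a had 137 in Fut8-/- and 201 in Fut8+/+ (-0.34). Its dimmer probe set, with 29.1 in Fut8-/- and 70.3 in Fut8+/+, gave -1.05. Man1c1 was dim on both arrays, with 29.1 in Fut8-/- and 56.2 in Fut8+/+ (-0.73). Man1a2 had 286 in Fut8-/- and 247 in Fut8+/+ (0.43), with 0.28 and -0.04 at 2 dimmer probe sets. The paralogues Man1a and Man1a2 were thus on opposite sides of 0 at their brightest probe sets, by 1.27-fold and 1.35-fold. Lman1, the lectin that carries a subset of glycoproteins from the ER to the Golgi, had 566 in Fut8-/- and 1242 in Fut8+/+ (-0.92, 1.89-fold lower). All 4 of its probe sets with both arrays above the floor were below 0, from -0.92 to -0.24, and without its brightest probe set, whose name marks it as matching several transcripts, the ratio was -0.64.

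Several probe sets lay above the floor on both arrays for 12 genes, of which 8 kept the same sign at every such probe set and 4 did not (Alg12, Alg14, Dpm1 and Man1a2). The remaining 19 rested on 1 such probe set each.

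Other genes of assembly and transfer lay close to the array as a whole. Of 12 further assembly and transfer genes, among them the dolichol synthesis genes Dhdds, Nus1 and Srd5a3, 0 were at least 2-fold different. Of all measured genes, 6.08% were higher and 8.46% lower by as much, so a count of 0 among 12 says little. The median log2 ratio of the 12 was 0.09, beside -0.32 for the 31 genes. The most different were the small oligosaccharyltransferase subunit Ost4, with 2853 in Fut8-/- and 2373 in Fut8+/+ (0.48), and Krtcap2, with 3117 in Fut8-/- and 3027 in Fut8+/+ (0.26). Ostc and Krtcap2, which belong to the Stt3a form, had ratios of -0.07 and 0.26, and Magt1, which takes the place of Tusc3 in the Stt3b form, had 0.12. Of 11 genes that supply the sugar nucleotides, Gfpt2 was the 1 past 2-fold (beside 8.46% of all measured genes lower by as much). It was at least 4.01-fold lower, with 5.88 in Fut8-/- and 49.5 in Fut8+/+. Its paralogue Gfpt1, which sets the pace of UDP-N-acetylglucosamine synthesis, had 1045 in Fut8-/- and 2006 in Fut8+/+ (-0.72), and the phosphomannomutase genes Pmm1 and Pmm2 had ratios of 0.64 and 0.68. The median of the sugar nucleotide list was -0.17, and 8 of its 11 ratios were below 0 (72.7%, beside 49.9% of all measured genes). At a limit of 1.5-fold 3 were lower and 2 higher (beside 16.6% and 14.4%).

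Of 15 genes for folding, export and disposal of glycoproteins, the median log2 ratio was -0.24 and 1 was lower by 2-fold (beside 8.46% of all measured genes). It was Uggt2, the paralogue of Uggt1, with 26.0 in Fut8-/- and 66.4 in Fut8+/+ (2.19-fold lower). At a limit of 1.5-fold 4 of the 15 were lower (Uggt2, Erlec1 at -0.71, Sel1l at -0.62 and Os9 at -0.60, the last 3 of ER-associated degradation) and 0 higher, and 11 (73.3%) had ratios below 0. Of all measured genes, 16.6% were lower and 14.4% higher by 1.5-fold, and 49.9% had ratios below 0. Edem1, which helps to select glycoproteins for disposal, had -0.54 and the lectin chaperone calreticulin (Calr) -0.36. Calnexin (Canx, -0.07) and the Lman1 partner gene Mcfd2 (-0.07) were near 0, and the cargo lectin gene Lman2 had 0.47. In the unfolded protein response list, 9 of 18 genes were lower by 2-fold or more (beside 8.46% of all measured genes). None was higher by as much (beside 6.08%), and the median was -0.84. Trib3 (107 in Fut8-/- and 549 in Fut8+/+), Ddit3 (135 in Fut8-/- and 655 in Fut8+/+), Chac1 (255 in Fut8-/- and 1168 in Fut8+/+) and Ppp1r15a (98.6 in Fut8-/- and 387 in Fut8+/+) led it. Atf3, Herpud1, Asns, Dnajb9 and Pdia4 were the other 5. The list joins ER chaperone genes with genes of the ATF4 and amino acid stress response, so its median does not speak for either part. The 9 genes within 2-fold were uneven. Hspa5 (-0.11), Hsp90b1 (-0.10), Dnajc3 (0.03) and Manf (0.08) lay near 0. Creld2 (-0.22), Hyou1 (-0.49), Xbp1 (-0.54), Sdf2l1 (-0.57) and Atf4 (-0.68) were lower. The relation of this list to the ratios of the glycan genes was not tested.

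**Figure D4:**
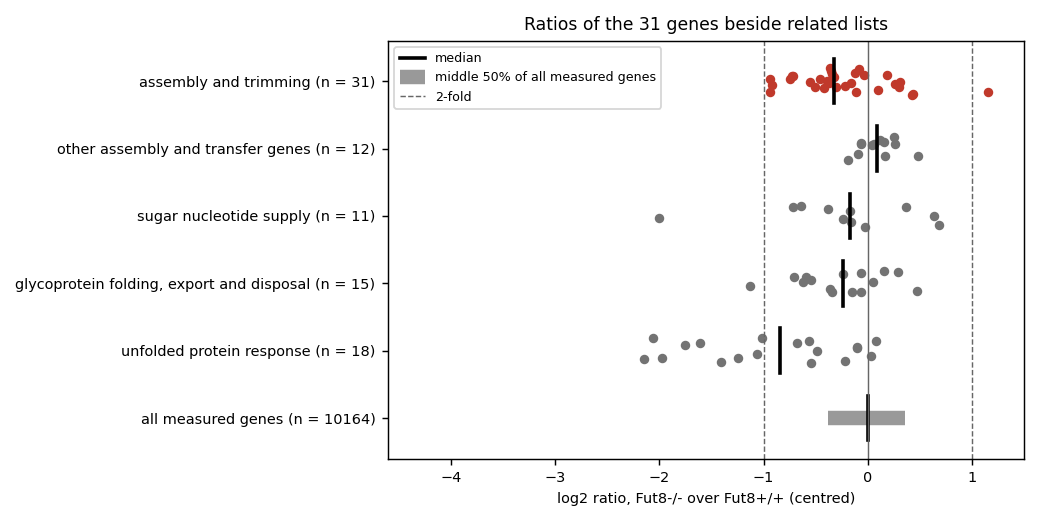
log2 ratio of Fut8-/- over Fut8+/+ (horizontal axis) for the measured genes of each list, 1 point per gene with the list median as a black bar, and the middle 50% of all 10164 measured genes as a grey bar. The 31 genes (red) have a median of -0.32 and 1 point beyond 2-fold, and the unfolded protein response list has a median of -0.84 and 9 points beyond it.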

How the data were processed

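The values were the authors' deposited signal intensity values, linear and 1 per probe set and array, made with GCOS (Affymetrix GeneChip Operating Software) per the submitters' processing notes. The sources used here give neither its version nor how signals were computed and scaled. Array medians were 16.9 (Fut8-/-) and 20.5 (Fut8+/+), so scale and centring stay unknown, which is why ratios were centred (shift -0.22 on the log2 scale, over those above the 40th percentile in each column). The floor was the 40th and the measured limit the 60th percentile of both arrays pooled. Gene symbols came from the platform annotation, which gave 34945 probe sets exactly 1, and each gene was read at the probe set with the highest mean log2 signal. Genotypes came from the labels. Precision is limited by the number of arrays.

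The 31 genes and all lists were chosen with earlier results of these data known. All 31 are named; of other lists, genes past 2-fold, or else the 2 with the largest ratio. Further genes, the neighbours of Alg5 among them, were picked with their values in view. The steps, run in Python 3.11.15, were tested on simulated data. The alternatives were no centring, quantile and loess (span 0.4) normalization, floors at the 20th and 60th percentiles, no filter and a filter at the 75th percentile, the median over probe sets, centring of each chromosome and a 1.5-fold limit.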

Additional observations from a re-analysis of the deposited data

How the results depend on the processing

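No paired analysis was possible because each genotype has 1 array. The median log2 ratio of the 31 genes was below 0 under all 10 alternatives that give one, from -0.54 without centring, where the median of all measured genes was itself -0.23, to -0.20 with the filter at the 75th percentile, which left 26 genes. The count of genes at least 2-fold higher was 0 in place of 1 without centring and with each chromosome centred. The count at least 2-fold lower was 3 without centring, 1 (Dpm3) with each chromosome centred and 6 at a 1.5-fold limit, in place of 0. Of 305 values of single genes under the alternatives, 301 moved by less than the SD between probe sets. The 4 that moved by more were Dpm3, Alg11, Uggt1 and, with probe sets of shared sequence left out (an alternative chosen after seeing the data), Stt3a, at -0.58. Many of the 301 values could not have moved by more. The lower floor, no filter and the filter at the 75th percentile left every ratio they gave unchanged. Leaving out the centring shifted every ratio by the same -0.22, less than that SD. The count of 301 is therefore no measure of how stable the ratios are. Alg1, Alg2 and Alg8 changed sign under some setting, 22 genes were below 0 and 6 above 0 under every setting in which they were measured. For Uggt1 the median over probe sets, -0.17, fell on a probe set with its Fut8-/- signal raised to the floor, and the probe sets above it gave -0.75 and -0.12. Dpm3 moved to -0.37 because its scaled Fut8-/- signal, 26.3, was raised to the floor at the 60th percentile. For Alg11 the median over probe sets, -0.48, lay between its probe sets at -0.94 and -0.02. The Stt3a value was that of its next brightest probe set. The cause of the remaining changes was not tested. Dim signals limit Dpm3, Man1c1 and Alg12, whose signals lay nearest to the floor of 12.3.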

Other observations

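The stretch of chromosome 3 around Alg5 went on beyond its nearest neighbours. From Foxo1 to Rap2b, 28 measured genes in a row, Alg5 among them, had ratios above 0, and 20 of them were at least 2-fold higher in Fut8-/- (6.08% of all measured genes were). Their log2 ratios ran from 0.29 for Siah2 to at least 6.54 for Postn, with a median of 1.16. Pfn2, an actin-binding profilin gene, had signals of 6091 in Fut8-/- and 1211 in Fut8+/+, and Tm4sf1, a tetraspan surface protein gene, 6330 in Fut8-/- and 3308 in Fut8+/+. Without centring all 28 were still above 0 and 12 were at least 2-fold higher. The other 491 measured genes of chromosome 3 had a median of 0.20, and 9.78% of them were at least 2-fold higher. A median of 10 neighbours as high as that of Alg5 was found for 4 of the 9932 genes with enough neighbours (0.0403%), Alg5 included, and the windows of nearby genes overlap. The run was noticed in the data and its ends were set by the data, so these values describe it and test nothing.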
